A study of Mus musculus with 24 samples.

Results

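The 10 genes described here are markers of epithelial and mesenchymal cell adhesion: Cdh1, Epcam, Ocln, Cldn6 and Cldn7 on the epithelial side, Cdh2, Vim and Fn1 on the mesenchymal side, and the transcription factors Snai1 and Zeb2. They were chosen by symbol and joined to the gene IDs of the count table, which lists 24594 genes. All 10 were found, and all 10 passed the filter on low counts that left 15682 genes for testing. The rule itself uses no measured value, but the genes were chosen with earlier results of these data known. The same holds for the gene lists further below. Shares of genes that passed, set beside those of all genes, are therefore descriptions.

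Epithelial cells hold on to each other through adherens junctions, built around E-cadherin (the product of Cdh1), and through tight junctions, in which occludin (Ocln) and claudins (Cldn6, Cldn7) seal the space between neighbouring cells. In an epithelial-to-mesenchymal transition (EMT) these genes are switched off and N-cadherin (Cdh2), vimentin (Vim) and fibronectin (Fn1) take over, under repressors such as SNAIL (Snai1) and ZEB2 (Zeb2), which bind E-box sequences at epithelial promoters. Mouse embryonic stem cells (mESCs) grow as compact colonies held together by E-cadherin, and an EMT is a step of gastrulation, when cells leave the pluripotent epiblast.

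RNA was sequenced from mESCs of 129S6/SvEvTac background, grown without treatment in serum and leukemia inhibitory factor on gelatin, in 24 libraries of 5 batches named by the letters A to E. WT cells gave 11 libraries (2 in each of batches A, B, C and E, and 3 in batch D). The knock-outs were each made to lack 1 accessory subunit of the ISWI chromatin remodelers, which slide nucleosomes with the ATPase SNF2H: Rsf1Δ (RSF complex; 2 libraries, batch A), WstfΔ (Baz1b, WICH; 2, batch A), Tip5Δ (Baz2a, NoRC; 2, batch B), BptfΔ (NURF; 2, batch C), Cecr2Δ (CERF; 3, batch D) and Acf1Δ (Baz1a, ACF and CHRAC; 2, batch E). Each genotype is 1 line made with CRISPR–Cas9 from the parental cells, so a property of a clone and an effect of the missing subunit cannot be told apart. Rsf1Δ and WstfΔ share their WT libraries.

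Library totals lay between 13417755 and 36721585 counts. The mRNA of the targeted gene was lower in 4 lines, from a log2 fold change of -1.72 (Baz1a in Acf1Δ) to -2.40 (Baz1b in WstfΔ). It was at -0.26 for Baz2a in Tip5Δ (edgeR adjusted p = 0.0533) and at 0.37, that is higher than in WT, for Cecr2 in the libraries labelled Cecr2Δ (edgeR adjusted p = 0.000154), which are named by their label throughout. The paper reports that western blots detected none of the targeted proteins in the deletion lines, and protein is not measured by these mRNA levels. Batch C stands apart: 60 histone genes whose mRNAs lack a poly(A) tail summed to 4396 and 4489 normalized CPM (counts scaled to a common library size with TMM factors) in its WT libraries and to 6190 and 6253 in BptfΔ, against 19.97 to 43.95 in the 20 other libraries. All libraries expressed the mESC markers Pou5f1, Sox2, Nanog, Klf4, Esrrb and Zfp42, which summed to between 2527 and 4117 normalized CPM. Markers of the primitive streak and mesoderm (T, Eomes, Mixl1, Mesp1, Gsc, Tbx6, Msgn1 and Fgf8), the tissue in which an EMT occurs in the embryo, summed to between 5.41 and 9.97 normalized CPM.

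In WT cells Cdh1 and Epcam were the most abundant of the 10 genes, followed by Fn1, Vim and Cldn6. Levels of different genes were compared as normalized CPM per kilobase of gene width. The order of the medians over 11 WT libraries was Cdh1 (96.9), Epcam (74.0), Fn1 (64.4), Vim (42.0), Cldn6 (40.3), Cldn7 (4.88), Snai1 (4.68), Ocln (1.83), Cdh2 (0.51) and Zeb2 (0.11). Among neighbours in this order, the ranges over the 11 WT libraries overlapped for Cdh1 (80.8 to 131) and Epcam (66.6 to 85.6), Epcam and Fn1 (41 to 103), Fn1 and Vim (35.7 to 59.1), Vim and Cldn6 (14.9 to 55.4), Cldn7 (1.64 to 7.5) and Snai1 (1.04 to 5.82), Snai1 and Ocln (1.22 to 2.33). They did not overlap between Cldn6 and Cldn7, between Ocln and Cdh2 (0.38 to 1.20), or between Cdh2 and Zeb2 (0.07 to 0.22).

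The WT libraries themselves differed between batches. The highest WT library was 5.61 times the lowest for Snai1, 4.58 times for Cldn7, 3.72 times for Cldn6, 3.18 times for Cdh2, 3.01 times for Zeb2 and 2.51 times for Fn1, but 1.29 times for Epcam. A test for differences among the 5 WT batches passed an adjusted p of 0.01 (edgeR's quasi-likelihood F test) for 9 of the 10 genes, and for 69.4% of 15413 genes tested. The exception was Epcam, with an adjusted p of 0.041. Each line was therefore compared with the WT libraries of its own batch, through a batch term in the model, and the range of all 11 WT libraries is given where it matters.

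**Figure D1:**
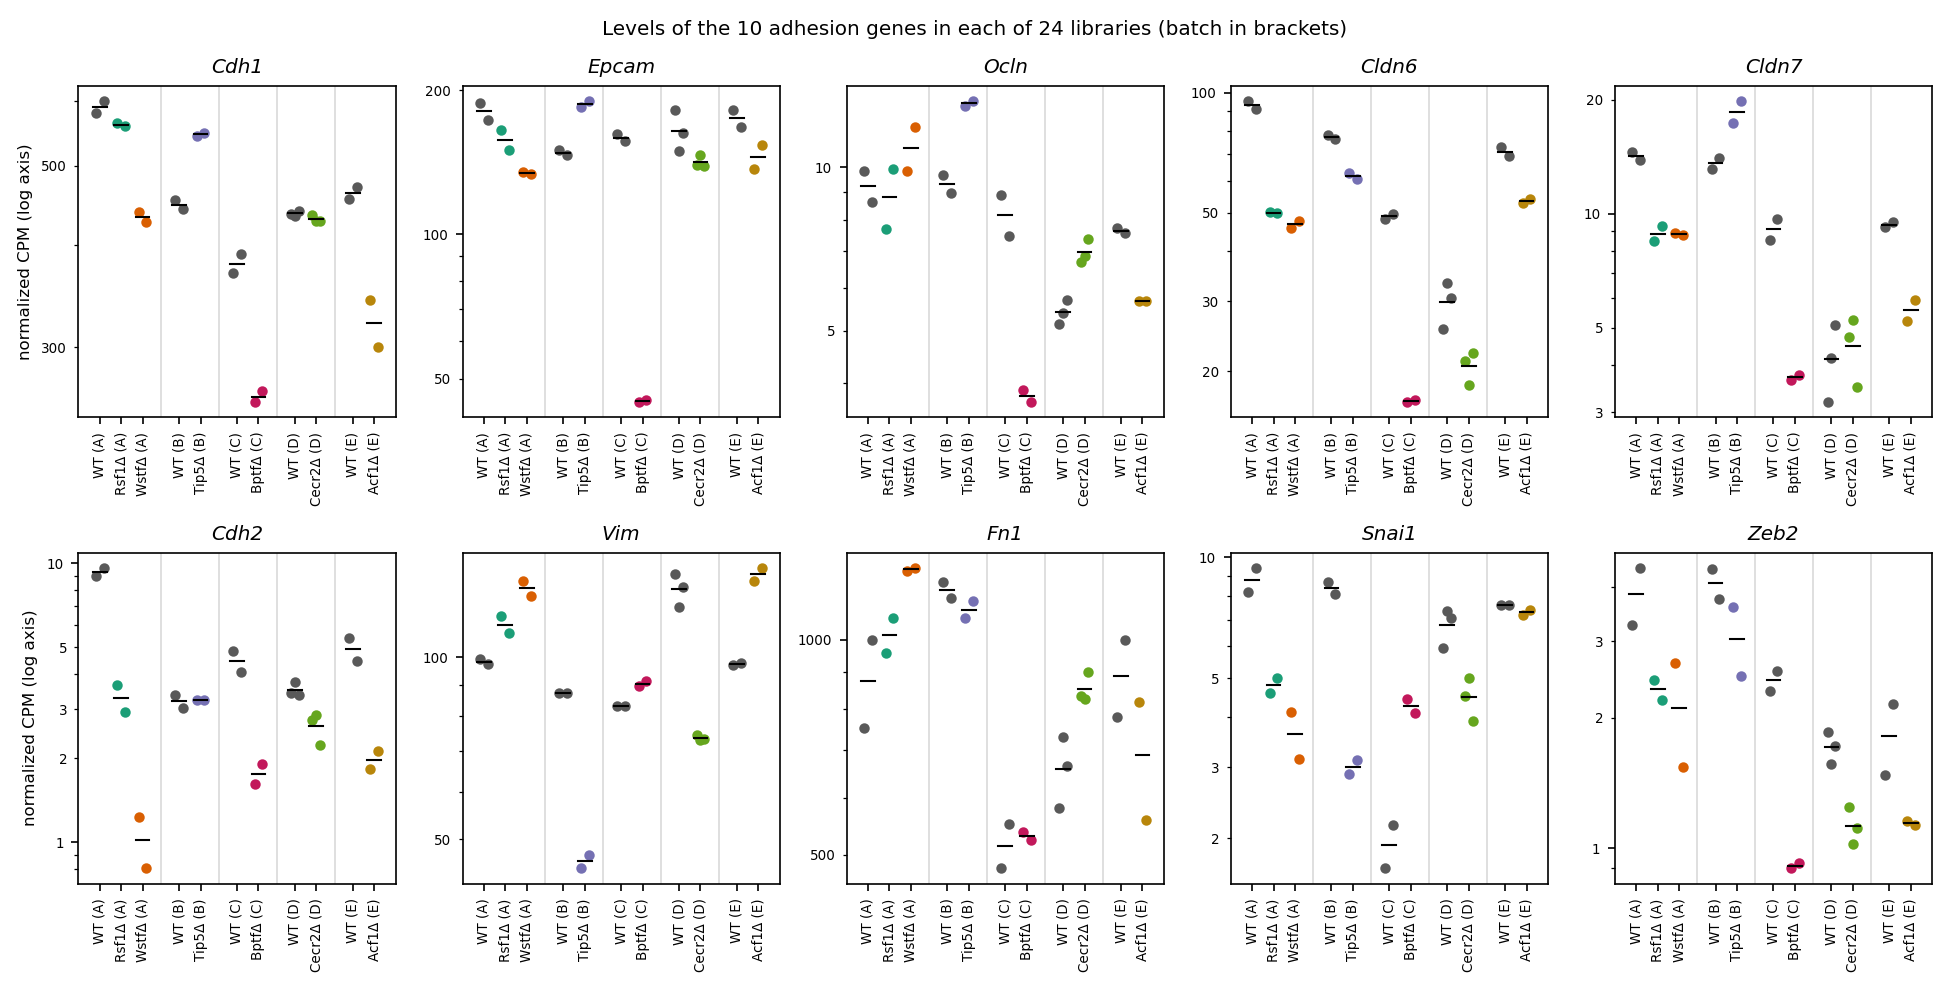
Normalized CPM of the 10 genes (1 panel each, log axis) in every library, by group with the batch in brackets. Points are libraries, horizontal bars are group means, and vertical lines part the batches. In BptfΔ, Epcam (44.7 and 45.2) and Cldn6 (16.8 and 17.0) lie below every WT library, and in WstfΔ the same is seen for Cdh2 (1.23 and 0.80).

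SNAIL and ZEB proteins bind the E-box CACCTG, which reads CAGGTG on the other strand. RefSeq promoters of GRCm38.p6 were at hand for 7 of the 10 genes (12 promoters, since Ocln, Cldn7 and Zeb2 have more than 1 start), and the 250 bases before each start were searched on both strands. An E-box was found in 5 of the 12 promoters, 1 each of Epcam, Ocln, Cldn6, Cldn7 and Snai1, and in 17.2% of all 32851 promoters, with 2 or more in 2.06%. No match was seen in these windows for Vim or Zeb2. Cdh1, Cdh2 and Fn1 had no promoter at hand and were not searched. The promoters of Epcam, which carries 2 E-boxes, and of Snai1, which carries 1, are shown whole. Both genes were DEGs in BptfΔ, and their E-boxes lie outside the exons that GENCODE annotates for the same gene. Capitals mark the E-boxes, and both sequences end 1 base before the start of the transcript.
Epcam, chr17:87635729-87635978, plus strand: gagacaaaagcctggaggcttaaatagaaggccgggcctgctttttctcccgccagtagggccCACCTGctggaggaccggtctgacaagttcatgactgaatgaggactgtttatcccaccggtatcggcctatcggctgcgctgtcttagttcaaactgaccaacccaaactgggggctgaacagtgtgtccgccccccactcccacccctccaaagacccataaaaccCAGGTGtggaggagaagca
Snai1, chr2:167537945-167538194, plus strand: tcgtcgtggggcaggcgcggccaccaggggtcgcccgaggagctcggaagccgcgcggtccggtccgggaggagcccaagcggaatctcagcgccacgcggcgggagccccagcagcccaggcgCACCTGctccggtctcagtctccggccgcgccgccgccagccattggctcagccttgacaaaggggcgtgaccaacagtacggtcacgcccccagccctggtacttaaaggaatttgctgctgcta

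For the tight junction genes the E-boxes fall inside exons that GENCODE annotates for other transcripts of the same gene, in untranslated sequence, so only the 30 bases around each are shown. They are given because all 3 genes fell in BptfΔ.
Ocln, chr13:100552694-100552723, minus strand: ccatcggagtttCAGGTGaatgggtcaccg
Ocln, chr13:100552549-100552578, minus strand: ctaggggctcggCAGGTGggtcccagcgca
Cldn6, chr17:23679260-23679289, plus strand: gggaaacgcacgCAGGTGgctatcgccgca
Cldn7, chr11:69965312-69965341, plus strand: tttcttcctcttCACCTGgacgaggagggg
Cldn7, chr11:69965352-69965381, plus strand: agacttccggttCAGGTGagtgtcccttca
The start used by the mESC transcripts and binding of SNAIL or ZEB2 at these letters were not measured here.

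Across the 6 lines, the 10 genes gave 60 comparisons with WT, of which 39 passed an adjusted p of 0.01, 8 higher and 31 lower. In BptfΔ, 8 of 10 genes passed, 7 lower and 1 higher, against 20.2% lower and 21.4% higher among all genes tested. DEGs (adjusted p under 0.01 and an absolute log2 fold change over 1) made up 7 of the 10 in BptfΔ and 13.8% of all genes. In WstfΔ, 9 passed, 7 lower and 2 higher, against 18.3% and 16.4% of all genes, with 2 DEGs against 10.4%. In Acf1Δ, 7 passed, 6 lower and 1 higher, against 16.7% and 15.1%, with 1 DEG against 4.45%. In Rsf1Δ, 4 passed, all 4 of them lower, against 13.1% lower and 7.45% higher, with 1 DEG against 5.91%. In Tip5Δ, 6 passed, 3 in each direction, against 6.23% lower and 2.84% higher, with 1 DEG against 2.72%. In the libraries labelled Cecr2Δ, 5 passed, 4 lower and 1 higher, against 8.83% and 9.52%; all 5 changes were under the fold of a DEG, which 3.11% of all genes reached. The median log2 fold change of the 10 genes was -1.20 in BptfΔ, -0.57 in WstfΔ, -0.44 in Rsf1Δ, -0.42 in Acf1Δ, -0.32 in the libraries labelled Cecr2Δ and -0.04 in Tip5Δ, where the median of all genes lay between -0.03 and 0.01 in every line.

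Of the 39 calls, 26 were kept when each library of the line and its WT was left out in turn and under every other alternative with a batch term. All 8 calls of BptfΔ were among the 26, and 6 of the 9 of WstfΔ, 4 of the 7 of Acf1Δ, 3 of the 5 of the libraries labelled Cecr2Δ, 3 of the 4 of Rsf1Δ and 2 of the 6 of Tip5Δ. The 13 others are named as less stable beside their values. In bulk RNA, fewer cells of a type and less RNA per cell cannot be told apart, here or in any result that follows.

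**Figure D2:**
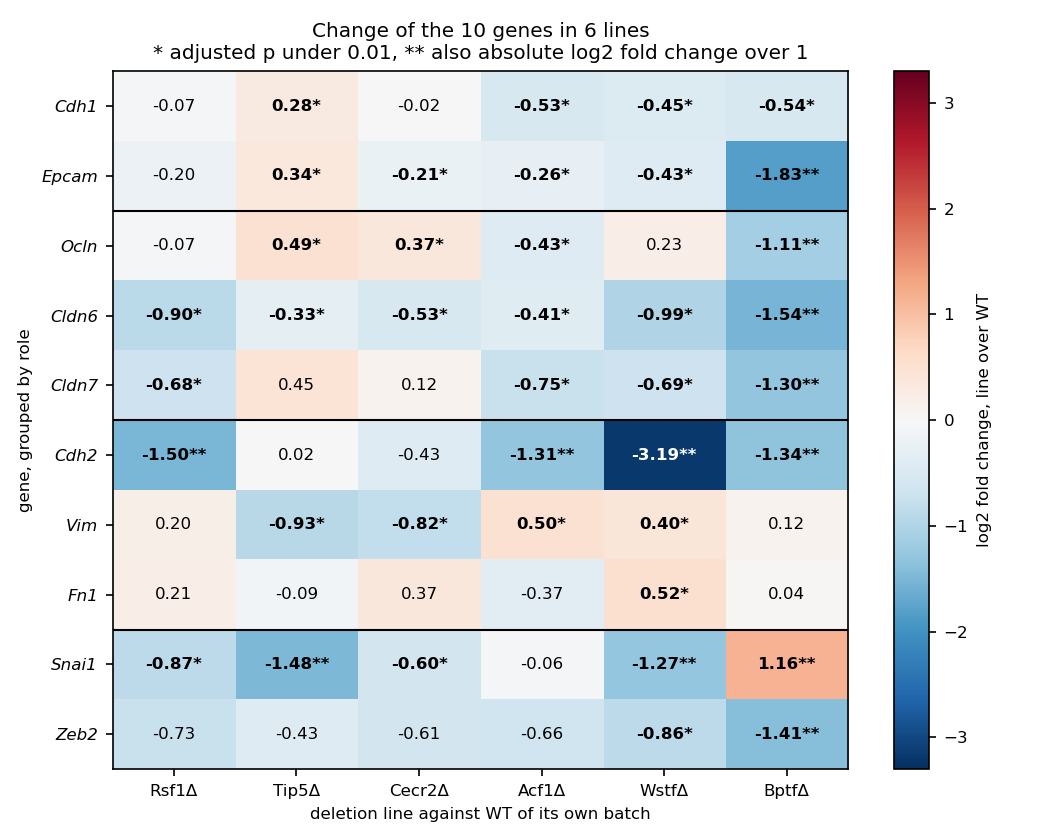
Log2 fold change of the 10 genes (rows, grouped as adherens junction, tight junction, mesenchymal and transcription factor genes) in each line against the WT of its batch (columns), with colour and printed value. One asterisk marks an adjusted p under 0.01 and 2 also an absolute log2 fold change over 1. BptfΔ holds 7 of the 12 values with 2 asterisks, and the lowest value is that of Cdh2 in WstfΔ (-3.19).

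Epcam, a cell surface adhesion molecule of epithelia and pluripotent cells (gene ID 17075, GRCm38 chr17:87635979-87651127), had the largest drop of the epithelial genes, in BptfΔ. BptfΔ had 44.7 and 45.2 normalized CPM where WT of its batch had 162 and 157. The lowest of all 11 WT libraries was at 146, so BptfΔ lay below WT of every batch. The drop was 3.54-fold (log2 fold change -1.83, SE 0.082, edgeR adjusted p = 3.03e-16). Leaving out any 1 library gave values between -1.84 and -1.80.

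In the other lines Epcam moved by less. It was at 135 and 134 in WstfΔ against 188 and 174 in WT of batch A, below every WT library (log2 fold change -0.43, edgeR adjusted p = 3.98e-05). In Acf1Δ it was at 137 and 154 against 182 and 168 (-0.26, edgeR adjusted p = 0.00485), a call lost without WT replicate 1 of batch E (-0.21, edgeR adjusted p = 0.0707) or without Acf1Δ replicate 1 (-0.18, edgeR adjusted p = 0.0806). It was between 139 and 147 in the libraries labelled Cecr2Δ against 149 to 181 in WT (-0.21, edgeR adjusted p = 0.00819). There leaving out any 1 of the 6 libraries but WT replicate 2 of batch D lost the call, and without WT replicate 1 the value was -0.14 (edgeR adjusted p = 0.0815). Tip5Δ was the line in which it rose, to 185 and 189.9 from 150.1 and 146 (0.34, edgeR adjusted p = 0.00173), a call that leaving out any of the 4 libraries lost (0.32 to 0.36, edgeR adjusted p from 0.0126 to 0.0304). Rsf1Δ, at 165 and 150.1, did not pass (-0.20, edgeR adjusted p = 0.0435).

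Cdh1, which encodes E-cadherin (gene ID 12550, GRCm38 chr8:106603350-106670247), fell in 3 lines by less than 1.5-fold. It was at 369 and 390.0 normalized CPM in WT of batch C and at 257 and 265 in BptfΔ (log2 fold change -0.54, SE 0.056, edgeR adjusted p = 6.7e-09). It was at 456 and 471 in WT of batch E and at 342 and 299.8 in Acf1Δ (-0.53, SE 0.055, edgeR adjusted p = 2.96e-08). In both lines every library lay below every WT library of any batch.

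WstfΔ had 439 and 427 against 581 and 600.3 in WT of batch A (log2 fold change -0.45, SE 0.055, edgeR adjusted p = 2.16e-07), but these levels lie within the range of the 11 WT libraries. In Tip5Δ Cdh1 rose from 454 and 443 to 545 and 548 (0.28, edgeR adjusted p = 0.000468), a call lost without WT replicate 2 of batch B (0.27, edgeR adjusted p = 0.0154). In Rsf1Δ (-0.07) and in the libraries labelled Cecr2Δ (-0.02) it did not pass, and the second of these overlapped WT (428 to 436 against 435 to 441).

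The tight junction genes fell together in BptfΔ. Cldn6, a claudin of early embryonic epithelia and pluripotent cells (gene ID 54419, GRCm38 chr17:23679348-23682446), went from 48.3 and 49.6 to 16.8 and 17.0 normalized CPM, a 2.90-fold drop (log2 fold change -1.54, SE 0.10, edgeR adjusted p = 8.25e-13). Cldn7 (gene ID 53624, GRCm38 chr11:69964779-69967886) went from 8.56 and 9.69 to 3.65 and 3.76, a 2.46-fold drop (-1.30, SE 0.20, edgeR adjusted p = 3.21e-06). Ocln (gene ID 18260, GRCm38 chr13:100496504-100552718) went from 8.87 and 7.47 to 3.89 and 3.7, a 2.16-fold drop (-1.11, SE 0.16, edgeR adjusted p = 1.39e-06). None of these BptfΔ levels overlapped the WT of batch C, and those of Cldn6 and Ocln lay below all 11 WT libraries, whereas the WT libraries of batch D had Cldn7 at 3.19 to 5.09.

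Cldn6 was the gene that passed the test in all 6 lines, lower in each. It was at 50.2 and 49.8 in Rsf1Δ and at 45.7 and 47.8 in WstfΔ against 95.3 and 90.8 in their WT (log2 fold changes -0.90 and -0.99, edgeR adjusted p = 3.23e-09 and 5.69e-10). In the libraries labelled Cecr2Δ it was between 18.5 and 22.2 against 25.6 to 33.3 (-0.53, edgeR adjusted p = 3.99e-06), and in Acf1Δ at 52.7 and 54.3 against 73.0 and 69.3 (-0.41, edgeR adjusted p = 0.000269). The Acf1Δ call was lost in 1 alternative, the fit of the line with only its own WT. The change in Tip5Δ, to 62.7 and 60.7 from 78.1 and 76.6 (-0.33, edgeR adjusted p = 0.00726), lost its call when any of the 4 libraries was left out (-0.35 to -0.30, edgeR adjusted p from 0.0396 to 0.0817).

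Cldn7 also fell in Rsf1Δ (8.46 and 9.28), WstfΔ (8.89 and 8.78) and Acf1Δ (5.22 and 5.93), against 14.6 and 13.9 in WT of batch A and 9.21 and 9.52 in WT of batch E. The log2 fold changes were -0.68, -0.69 and -0.75 (edgeR adjusted p = 0.000803, 0.000992 and 0.000475). The Acf1Δ call was kept under every alternative with a batch term. That of Rsf1Δ was lost without WT replicate 1 of batch A (-0.64, edgeR adjusted p = 0.0118) or Rsf1Δ replicate 1 (-0.62, edgeR adjusted p = 0.0178), and that of WstfΔ without WT replicate 1 (-0.65), WstfΔ replicate 1 (-0.70) or WstfΔ replicate 2 (-0.68), with edgeR adjusted p up to 0.0134. In Tip5Δ (17.4 and 19.8 against 13.1 and 14.1) Cldn7 was at 0.45 with an edgeR adjusted p of 0.0243, and in the libraries labelled Cecr2Δ it overlapped WT.

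Ocln outside BptfΔ gave less stable calls only. It was higher in Tip5Δ (13 and 13.2 against 9.66 and 8.98, log2 fold change 0.49, edgeR adjusted p = 0.00467) and in the libraries labelled Cecr2Δ (6.68 to 7.37 against 5.15 to 5.69, 0.37, edgeR adjusted p = 0.00905), and lower in Acf1Δ (5.67 and 5.68 against 7.74 and 7.55, -0.43, edgeR adjusted p = 0.00967). Each of these 3 calls was lost whichever single library was left out, with the smallest edgeR adjusted p at 0.0207, 0.013 and 0.0265 in turn. In Rsf1Δ (-0.07) and WstfΔ (0.23) its levels overlapped those of WT.

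Among the mesenchymal genes, the one with the largest change was Cdh2, which encodes N-cadherin (gene ID 12558, GRCm38 chr18:16588877-16809246), and it was lower rather than higher. In WstfΔ it was at 1.23 and 0.80 normalized CPM (17 and 11 counts) against 8.98 and 9.65 (225 and 224 counts) in WT of batch A, a 9.1-fold drop (log2 fold change -3.19, SE 0.22, edgeR adjusted p = 5.03e-12). In Rsf1Δ it was at 3.65 and 2.93 against the same WT libraries (-1.50, SE 0.16, edgeR adjusted p = 2.48e-08). Both WstfΔ libraries lay below every WT library, while those of Rsf1Δ were near the lowest WT levels of other batches (3.03 in batch B).

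Cdh2 also fell in BptfΔ, to 1.62 and 1.91 from 4.83 and 4.09 (log2 fold change -1.34, SE 0.21, edgeR adjusted p = 7.25e-06), and in Acf1Δ, to 1.83 and 2.12 from 5.38 and 4.44 (-1.31, SE 0.18, edgeR adjusted p = 1.61e-06). These 4 libraries were below all 11 WT libraries. The calls in WstfΔ, Rsf1Δ, BptfΔ and Acf1Δ were kept under every alternative with a batch term. In Tip5Δ the levels overlapped WT (3.24 and 3.24 against 3.37 and 3.03), and in the libraries labelled Cecr2Δ they were at 2.23 to 2.86 against 3.37 to 3.74 without passing (-0.43, edgeR adjusted p = 0.02). In the GENCODE annotation an antisense gene, Gm15485, overlaps Cdh2, and whether strand was used in counting is not given in the sources used here.

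The ratio of Cdh1 to Cdh2 per kilobase was also taken within each library, where scaling plays no part. Its log2 value was 6.83 and 6.78 in WT of batch A, with a mean of 8.24 ± 0.22 (SD, n = 2) in Rsf1Δ and 9.59 ± 0.40 (SD, n = 2) in WstfΔ. It was 7.24 ± 0.23 in WT of batch C and 8.03 ± 0.14 in BptfΔ, and 7.38 ± 0.23 in WT of batch E and 8.17 ± 0.28 in Acf1Δ (SD, n = 2 each). In batch D it was 7.78 ± 0.090 in WT and 8.19 ± 0.19 in the libraries labelled Cecr2Δ (SD, n = 3 each), and in batch B 7.95 ± 0.085 in WT and 8.21 ± 0.0044 in Tip5Δ (SD, n = 2 each). In each batch every library of a line had a higher ratio of E-cadherin to N-cadherin mRNA than every WT library. The ratios are a description, given without a test.

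**Figure D3:**
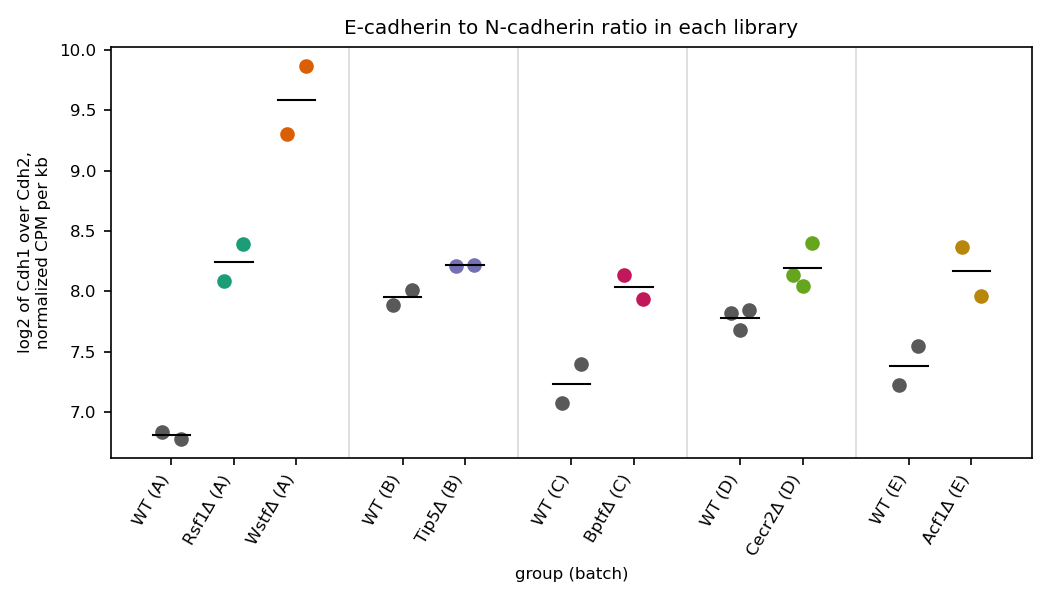
Log2 ratio of Cdh1 to Cdh2, both as normalized CPM per kilobase of gene width, in each library by group and batch. Points are libraries and bars are group means. The 2 WstfΔ libraries (9.30 and 9.87) are the highest, and within each batch the deletion line lies above WT.

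Vim, which encodes the intermediate filament vimentin (gene ID 22352, GRCm38 chr2:13574311-13582826), moved in opposite directions in different lines. It fell in Tip5Δ, to 44.7 and 47.2 normalized CPM from 87.4 and 87.5 (log2 fold change -0.93, SE 0.064, edgeR adjusted p = 1.15e-11), and in the libraries labelled Cecr2Δ, to 72.9 to 74.6 from 121 to 137 (-0.82, SE 0.049, edgeR adjusted p = 5.98e-13). It rose in Acf1Δ, to 134 and 141 from 97.0 and 97.7 (0.50, SE 0.060, edgeR adjusted p = 2.87e-07), and in WstfΔ, to 134 and 127 from 99.3 and 97.6 (0.40, SE 0.062, edgeR adjusted p = 5.42e-06). These 4 calls were kept under every alternative with a batch term. Tip5Δ and the libraries labelled Cecr2Δ lay below all 11 WT libraries, but WT of batch D, at up to 137, reached the levels of WstfΔ and of 1 of the 2 Acf1Δ libraries (134). In Rsf1Δ (0.20, edgeR adjusted p = 0.0119) and BptfΔ (0.12, edgeR adjusted p = 0.105) Vim did not pass.

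Fn1, which encodes the matrix protein fibronectin (gene ID 14268, GRCm38 chr1:71585473-71653280), passed in WstfΔ only, and not stably. It was at 1247 and 1261 normalized CPM in WstfΔ against 752 and 999 in WT of batch A (log2 fold change 0.52, SE 0.13, edgeR adjusted p = 0.00218). The groups did not overlap, but the WT libraries lay apart from each other. Without WT replicate 1 the change was 0.33 (edgeR adjusted p = 0.0918), without WstfΔ replicate 1 it was 0.53 (edgeR adjusted p = 0.0131), and without WstfΔ replicate 2 it was 0.51 (edgeR adjusted p = 0.0159). In Acf1Δ the levels overlapped WT (819 and 559 against 780.1 and 1000.02, -0.37, edgeR adjusted p = 0.0256), but passed without Acf1Δ replicate 1 (-0.67, edgeR adjusted p = 0.000227) or WT replicate 1 of batch E (-0.54, edgeR adjusted p = 0.00732). Fn1 in the libraries labelled Cecr2Δ was at 0.37 (edgeR adjusted p = 0.0101) and passed without WT replicate 2 of batch D (0.45, edgeR adjusted p = 0.00496). In BptfΔ (538 and 524 against 479 and 552) the levels overlapped. In the GENCODE annotation an antisense gene, Apol7d, overlaps Fn1, whereas the RefSeq coordinates place it 0.055 kb away.

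Snai1 (gene ID 20613, GRCm38 chr2:167538195-167542814) fell in 4 lines and rose in 1. It went from 8.66 and 8.09 to 2.89 and 3.12 normalized CPM in Tip5Δ, a 2.78-fold drop (log2 fold change -1.48, SE 0.16, edgeR adjusted p = 5.59e-08). In batch A, WT was at 8.18 and 9.43, WstfΔ at 4.12 and 3.15 (-1.27, SE 0.17, edgeR adjusted p = 6.14e-07) and Rsf1Δ at 4.60 and 5.01 (-0.87, SE 0.14, edgeR adjusted p = 2.83e-05). The libraries labelled Cecr2Δ were at 3.91 to 5.02 against 5.95 to 7.35 (-0.60, SE 0.11, edgeR adjusted p = 0.000209). None of these lines overlapped its WT, and the 4 calls were kept under every alternative with a batch term. In Acf1Δ Snai1 did not pass (7.20 and 7.37 against 7.59 and 7.59, -0.06, edgeR adjusted p = 0.759).

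In BptfΔ Snai1 was at 4.43 and 4.10 normalized CPM (74 and 71 counts) against 1.68 and 2.16 (32 and 37 counts) in WT of batch C, a 2.23-fold rise (log2 fold change 1.16, SE 0.21, edgeR adjusted p = 3.79e-05). The direction depends on the batch: the WT of batch C had the lowest Snai1 of all WT libraries, and both BptfΔ libraries lie below the 9 WT libraries of the other batches, which were at 5.95 or more. In a model without a batch term the value was -0.66 (edgeR adjusted p = 0.206). With the batch term, leaving out any 1 library of batch C gave values between 0.98 and 1.34 and kept the call. Without WT replicate 1 of batch C, Snai1 (0.98) and Ocln (-0.98) were under the fold of a DEG.

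Zeb2 (gene ID 24136, GRCm38 chr2:44983512-45117442) was the scarcest of the 10 genes per kilobase, with 15 to 115 counts a library. It fell in BptfΔ, to 0.90 and 0.92 normalized CPM from 2.31 and 2.57 (log2 fold change -1.41, SE 0.32, edgeR adjusted p = 0.000497), below all 11 WT libraries. In WstfΔ it was at 2.67 and 1.54 against 3.27 and 4.44 (-0.86, SE 0.25, edgeR adjusted p = 0.00647), a call lost without WT replicate 2 of batch A (-0.63, edgeR adjusted p = 0.0944) or WstfΔ replicate 2 (-0.52, edgeR adjusted p = 0.176). The 4 other lines had log2 fold changes between -0.73 and -0.43 and did not pass, although Rsf1Δ passed without WT replicate 1 of batch A (-0.93, edgeR adjusted p = 0.00927). In the GENCODE annotation the antisense gene Zeb2os and 4 small RNA genes overlap Zeb2, so its counts are uncertain for the reason given for Cdh2.

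Whether the change of a gene differed among the 6 lines was tested directly. The test passed for 9 of the 10 genes (edgeR's quasi-likelihood F test that the 6 changes are equal), against 65.3% of all genes tested. Zeb2 did not pass (edgeR adjusted p = 0.272). WstfΔ and Rsf1Δ, which share batch and WT, were compared with each other directly. Cdh2 (log2 difference, WstfΔ minus Rsf1Δ, -1.69, SE 0.26, edgeR adjusted p = 6.42e-06) and Cdh1 (-0.38, SE 0.055, edgeR adjusted p = 3.92e-06) were lower in WstfΔ. Vim (0.20, SE 0.061, edgeR adjusted p = 0.00902) was higher, a call lost with RLE scaling (0.19, edgeR adjusted p = 0.0123) and with the replicate block (edgeR adjusted p = 0.0156). Those are 2 genes lower and 1 higher of 10, against 15.8% lower and 17.5% higher among all genes.

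Other genes of the same pathways were taken from 4 lists. Among 33 tested genes of epithelial junctions and adhesion, 18 were lower and 2 higher in Acf1Δ. The counts were 15 lower and 2 higher in Rsf1Δ, 13 lower and 7 higher in WstfΔ, 11 lower and 7 higher in BptfΔ, and 1 lower and 3 higher in Tip5Δ, while in the libraries labelled Cecr2Δ all 13 that passed were lower. The shares were 33.3% lower and 21.2% higher in BptfΔ (20.2% and 21.4% of all genes) and 39.4% lower and 21.2% higher in WstfΔ (18.3% and 16.4%), so the higher shares lay near those of all genes. In Acf1Δ 54.5% were lower against 16.7% of all genes, in Rsf1Δ 45.5% against 13.1% and in Tip5Δ 3.03% against 6.23%. The share that was higher in Tip5Δ was 9.09% against 2.84%, a count of 3 that was 1 with library size only or the replicate block and 5 with no filter or DESeq2. For the libraries labelled Cecr2Δ 39.4% were lower against 8.83% of all genes, and 0% higher against 9.52%. In BptfΔ the DEGs with the largest changes were Marveld3, Pkp2 and Patj. Marveld3, a tight junction protein related to occludin, went from 3.0 ± 0.38 to 0.14 ± 0.20 normalized CPM (SD, n = 2 each), too near 0 for a fold. Pkp2, a desmosomal plakophilin, went from 43.8 ± 1.24 to 9.86 ± 0.54 (SD, n = 2 each; log2 fold change -2.15, edgeR adjusted p = 5.16e-16), and Patj, a scaffold of the apical Crumbs complex, fell by 1.88 on the log2 scale. In WstfΔ the adhesion receptor Nectin1 rose to 73.5 ± 2.25 normalized CPM, from 28.6 ± 2.13 in WT (SD, n = 2 each; log2 fold change 1.36, edgeR adjusted p = 8.44e-13). Dsp, the desmosomal protein desmoplakin, fell in Rsf1Δ (-1.34) and Acf1Δ (-1.58). The median of this list was -0.15 in BptfΔ and -0.34 in Acf1Δ, where the medians of all genes were 0.01 and -0.03.

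Among 17 regulators of the epithelial programme and keratins, 10 were lower and 4 higher in BptfΔ. The counts were 9 lower and 5 higher in WstfΔ, 9 lower and 1 higher in Acf1Δ, 8 lower and 2 higher in Rsf1Δ, and 8 lower and 3 higher in the libraries labelled Cecr2Δ. In Tip5Δ the 5 that passed were lower. The share that was lower, beside that of all genes, was 58.8% against 20.2% in BptfΔ, 52.9% against 18.3% in WstfΔ, 52.9% against 16.7% in Acf1Δ, 47.1% against 13.1% in Rsf1Δ, 29.4% against 6.23% in Tip5Δ and 47.1% against 8.83% for the libraries labelled Cecr2Δ. The share that was higher was 23.5% in BptfΔ, near the 21.4% of all genes, 29.4% in WstfΔ against 16.4%, 12% in Rsf1Δ against 7.45%, 5.88% in Acf1Δ against 15.1% and 17.6% against 9.52% for the libraries labelled Cecr2Δ. The medians were -0.85 in BptfΔ and -0.63 in WstfΔ. Esrp1, a splicing factor of epithelial cells, was at 43.9 ± 0.044 normalized CPM in WT and 0.85 ± 0.19 in BptfΔ (SD, n = 2 for both; log2 fold change -5.68, SE 0.14, edgeR adjusted p = 2.18e-21). Grhl2, a transcription factor that activates junction genes such as Cdh1, was at 52.3 ± 2.20 and 5.62 ± 0.016 (SD, n = 2 for both; -3.22, SE 0.097, edgeR adjusted p = 6.46e-20). In WstfΔ, Rsf1Δ and the libraries labelled Cecr2Δ the leading genes were keratins of simple epithelia. Krt18 fell from 193 to 15.5 normalized CPM in WstfΔ (-3.64), from 193 to 29.3 in Rsf1Δ (-2.72) and from 44.3 to 11 in the libraries labelled Cecr2Δ (-2.01).

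Of 10 other EMT transcription factors and their inhibitors tested, 2 were higher and 2 lower in BptfΔ, or 20% each way, which is near the shares of all genes (21.4% higher and 20.2% lower). Zeb1, a paralog of Zeb2 and also a repressor that binds E-boxes, rose to 43.9 ± 0.98 normalized CPM, from 15.6 ± 0.35 in WT (SD, n = 2 for both; log2 fold change 1.5, SE 0.11, edgeR adjusted p = 3.76e-12), while Snai3 (-1.49) and Id2 (-1.04) fell. Against WT of batch C, BptfΔ thus had Zeb1 and Snai1 higher and Zeb2 lower, with the limit on Snai1 given above. Id2, an inhibitor of helix-loop-helix factors, was a DEG in all lines but Tip5Δ, from -1.04 in BptfΔ to -1.83 in WstfΔ. The counts in WstfΔ were 4 higher and 3 lower, and in Acf1Δ 2 each. That is 40% and 30% in WstfΔ (16.4% and 18.3% of all genes) and 20% each way in Acf1Δ, near the 15.1% and 16.7% of all genes. The libraries labelled Cecr2Δ had 3 lower (30% against 8.83%), with 1 lower in Rsf1Δ (10% against 13.1%) and 1 higher in Tip5Δ (10% against 2.84%). The medians of this list lay between -0.19 and 0.07.

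Of the 25 other mesenchymal adhesion and matrix genes, more were lower than higher in each line. In Rsf1Δ 18 were lower, in WstfΔ 17 were lower and 3 higher, and in Acf1Δ 14 were lower and 1 higher. The libraries labelled Cecr2Δ had 13 lower and 1 higher, Tip5Δ 10 lower and 2 higher, and BptfΔ 8 lower and 5 higher. The share that was lower was 72% in Rsf1Δ (13.1% of all genes), 68% in WstfΔ (18.3%), 56% in Acf1Δ (16.7%), 52% in the libraries labelled Cecr2Δ (8.83%) and 40% in Tip5Δ (6.23%). In BptfΔ 32% were lower and 20% higher, where all genes had 20.2% and 21.4%. The medians were -1.26 in Rsf1Δ and -1.30 in WstfΔ. Loxl2, a lysyl oxidase of the matrix, fell to 2.86 ± 0.86 normalized CPM in BptfΔ, from 34.8 ± 0.69 in WT (SD, n = 2 for both; log2 fold change -3.61, edgeR adjusted p = 5.82e-18). In WstfΔ it fell to 19.3 ± 1.88 from 154 ± 0.44 (SD, n = 2 for both; -3.0, edgeR adjusted p = 2.65e-19). Cd44, a hyaluronan receptor, was a DEG in WstfΔ (-3.63), Rsf1Δ (-2.56), the libraries labelled Cecr2Δ (-2.41) and BptfΔ, where it went from 1.9 to 0.087 normalized CPM, too near 0 for a fold.

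**Figure D4:**
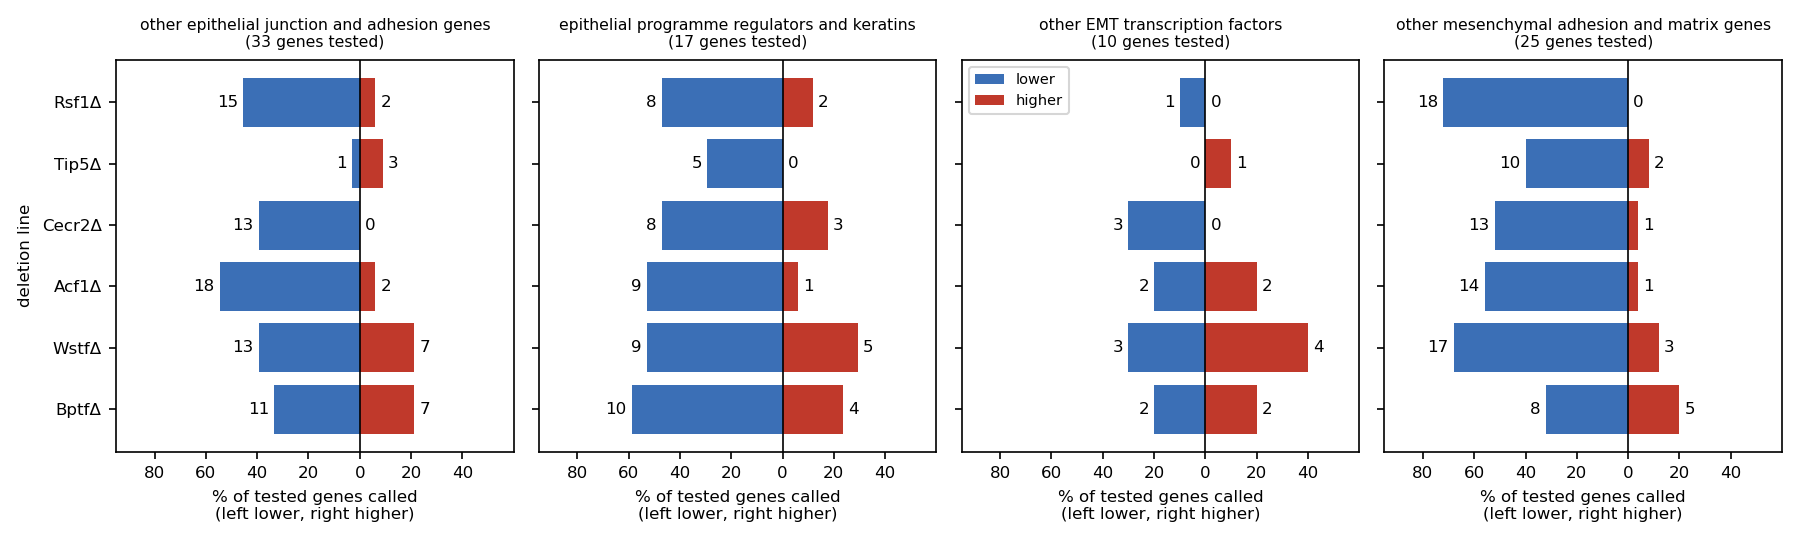
Percent of the tested genes of each list that passed an adjusted p of 0.01 in each line, lower to the left and higher to the right, with the number of genes at the bar ends. In Rsf1Δ and WstfΔ the longest bars are those of mesenchymal genes that were lower (18 and 17 of 25), and in BptfΔ that of epithelial regulators and keratins (10 of 17).

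Markers of mESCs and of other cell types moved with the lines. The 6 mESC markers were all higher in Rsf1Δ and WstfΔ, 5 of 6 were higher in BptfΔ and 4 of 6 in the libraries labelled Cecr2Δ. Of the same 6, Acf1Δ had 2 higher and 2 lower. Their sum was 3898 in both BptfΔ libraries against 2611 and 2677 normalized CPM in WT, 3763 and 3809 in WstfΔ and 3464 and 3468 in Rsf1Δ against 2527 and 2618, and 3019.98 and 3119 in Tip5Δ against 3086 and 3095. It was 3892 to 4117 against 3436 to 3705 in batch D, and 3762 and 3911 against 3182 and 3390.3 in batch E. The 10 primitive endoderm markers (Gata6, Gata4, Sox17, Sox7, Pdgfra, Dab2, Foxa2, Lama1, Col4a1 and Col4a2), an extraembryonic type that arises in mESC cultures, were all lower in 5 lines, while in Acf1Δ 3 were higher and 1 lower. Their summed level was 4017 and 4602 normalized CPM in WT of batch A, 1176 and 1237 in Rsf1Δ and 991 and 1003 in WstfΔ. It was 4347 and 4362 against 721 and 761 in Tip5Δ, 2175 and 2278 against 320.1 and 328 in BptfΔ, and 1030.4 to 1101 against 183 to 201 in the libraries labelled Cecr2Δ. In Acf1Δ it was 2421 and 3236 against 2419 and 2938, overlapping WT. The part of these cells in the changes of the 10 genes was not tested in any line.

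The 10 fibroblast markers (Col1a1, Col1a2, Col3a1, Thy1, Postn, Pdgfrb, Dcn, Lum, Acta2 and Tagln) summed to 173 and 177 normalized CPM in WT of batch A, 35.6 and 38.6 in Rsf1Δ and 27.1 and 31.9 in WstfΔ, and to 49.9 and 50.8 in WT of batch C against 9.88 in both BptfΔ libraries. They were 158 and 161 against 107 and 117 in Tip5Δ, 38.6 to 43.2 against 26.2 to 28.4 in the libraries labelled Cecr2Δ, and 132 and 133 against 33.1 and 33.8 in Acf1Δ. Of the 10, 7 were tested, and 3 to 5 of these were lower in each line, with 1 higher in WstfΔ. From 2 to 6 of the 10 were at or under 3 counts in every library of a group. Lum was among them in all groups and Dcn and Postn in most, and Col1a2, Dcn, Lum and Postn were at 0 in both BptfΔ libraries. The 6 markers of primed epiblast (Fgf5, Otx2, Pou3f1, Zic2, Dnmt3b and Lefty2) were all lower in BptfΔ, with sums of 118 and 121 against 459.6 and 474. Of the same 6, 5 were lower in Rsf1Δ, 5 in WstfΔ (with 1 higher) and 4 in Acf1Δ, and in the libraries labelled Cecr2Δ 5 were higher and 1 lower. Trophectoderm markers (Cdx2, Gata3, Tfap2c, Eomes, Elf5 and Hand1) summed to 20.2 and 22.1 in Acf1Δ against 56.7 and 60.1, to 20.3 and 23.3 in BptfΔ against 47.8 and 47.9, to 43.8 and 44.0 in Rsf1Δ and 39.7 and 42.3 in WstfΔ against 65.8 and 67.3, and to 49.0 and 50.9 in Tip5Δ against 60.03 and 61.5. They were at 54.1 to 58.2 in the libraries labelled Cecr2Δ against 38.4 to 48.1. Of the 5 trophectoderm markers tested, 3 were lower in Rsf1Δ, and 3 lower and 1 higher in WstfΔ. In Acf1Δ and BptfΔ 2 were lower. The libraries labelled Cecr2Δ had 1 higher, Tfap2c (50.4 against 34.6 normalized CPM), and 2 lower. Those 2 were Gata3 (0.22 against 1.82) and Hand1 (0.38 against 2.23). Neuroectoderm markers (Pax6, Sox1, Pax3, Neurog1 and Nkx6-1) summed to 18.4 and 19.6 in BptfΔ against 9.16 and 9.61, to 15.1 and 18.8 in Tip5Δ against 12.3 and 13, to 13.2 and 14.6 in WstfΔ and 12.2 and 12.3 in Rsf1Δ against 9.49 and 11.2, to 12.5 and 13.5 in Acf1Δ against 18.8 and 21.7, and to 9.63 to 10.3 against 10.8 to 11.5 in batch D. Of the 5 neuroectoderm markers 2 were tested, Sox1 and Pax6. In BptfΔ Sox1 was higher (log2 fold change 2.26, edgeR adjusted p = 7.54e-12) and Pax6 lower (-1.51, edgeR adjusted p = 3.5e-06). In WstfΔ Sox1 was higher (1.87, edgeR adjusted p = 8.08e-10) and Pax6 lower (-2.02, edgeR adjusted p = 8.87e-08). Sox1 was also higher in Rsf1Δ and Pax6 in Tip5Δ, and Pax6 was lower in Acf1Δ. Of the 8 streak and mesoderm markers 6 were tested. Their sum was 8.85 and 9.97 in WstfΔ against 5.62 and 6.63, where Eomes, also a trophectoderm marker, rose to 7.12 from 3.46 (log2 fold change 1.05, edgeR adjusted p = 5.84e-05). T was lower in BptfΔ (0.059 against 1.38, edgeR adjusted p = 3.08e-06), and Gsc and Tbx6 were lower in Acf1Δ. The part of these cells was not tested either.

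The genomic neighbours of Epcam, Cldn6 and Cldn7 in BptfΔ held no DEG, and neither did those of Snai1, while those of Ocln (3 of 6), Cdh2 (4), Vim (2), Cdh1 (1), Fn1 (1) and Zeb2 (1) did. Over all genes in BptfΔ, 13.8% were DEGs, 21.4% passed as higher and 20.2% as lower. Of 6 neighbours each, 6 passed for Ocln, 5 for Cdh2, 4 for Cldn6 and 3 each for Vim, Fn1 and Snai1. For Cdh1, Epcam and Zeb2 2 each passed, and for Cldn7 1. The 3 tested genes on either side of Epcam, within 370 kb, had log2 fold changes between -1.64 and 0.44, and the 2 that passed were higher. Kcnk12, at the low end, did not pass (edgeR adjusted p = 0.0584). Around Cldn6 4 of 6 neighbours passed and around Cldn7 1 of 6, and Cldn9, 0.138 kb from Cldn6, was at -1.0 (edgeR adjusted p = 0.124). Around Ocln all 6 of its neighbours within 246 kb were lower, 3 of them as DEGs, among them Marveld2, a tight junction gene 43.2 kb away (-1.20, edgeR adjusted p = 2.77e-05). Beside Cdh1, the P-cadherin gene Cdh3, 46.4 kb away, was the 1 DEG, and it was higher (1.22, edgeR adjusted p = 6.25e-12). The neighbours of Cdh2 lie over 1000 kb away. These neighbours are named for their position.

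Likeness between genes was described by Pearson's r over the 24 libraries, on log2 CPM minus the mean of the WT libraries of the batch. The 24 points come from 7 genotypes in 5 batches, so they are not independent and no test is given. Among the 10 pairs of epithelial genes r ranged from 0.48 (Ocln and Cldn6) to 0.86 (Cdh1 and Cldn7). The highest r of all pairs was that of Cldn6 and Zeb2 (0.88), and Zeb2 had a positive r with each epithelial gene, down to 0.37 with Ocln. For Cdh2 and Cdh1 r was 0.73. The value was negative for Snai1 with Ocln (-0.80) and with Epcam (-0.58), near 0 for Snai1 with Cldn6 (-0.035), and negative for Vim with Cdh1 (-0.68). The genes most like Epcam were Emb (0.98), Pkp2 (0.97) and Zfp941 (0.97), and those most like Cdh2 were the genes of contractile filaments Myl9 (0.97), Tpm1 (0.97) and Tagln (0.96). For Cdh1 they were Epb41l2 (0.95), Sestd1 (0.95) and Grhl1 (0.95), for Ocln Rnf144a (0.96), for Cldn6 Clcn5 (0.97), for Cldn7 Nsmaf (0.93), for Vim Dcbld1 (0.89), for Fn1 Baz2a (0.93), for Snai1 Wdr1 (0.93) and for Zeb2 Nomo1 (0.91). The choice of scale matters: of the 30 genes named so, 3 for each of the 10, 6 were also among the closest without the subtraction of the batch mean.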

How the data were processed

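RNA-seq of 24 mESC libraries was analysed. The authors aligned reads to mm10 with QuasR, assigned them to UCSC knownGene genes, and deposited the raw count of each gene beside its width in bases. Counting options for strand and multiply matching reads are not given in the sources used here. The labels name a stranded TruSeq mRNA protocol and the methods the TruSeq RNA Library Prep Kit v2. The study calls its replicates biological and independent; whether they are separate cultures of 1 line is not given in the sources used here.

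Symbols and coordinates came from RefSeq (GRCm38; 24570 of 24594 IDs). With R 4.3.3 and edgeR 4.0.16, genes were filtered (filterByExpr by genotype, 15682 kept), scaled (TMM) and fitted with the legacy quasi-likelihood model (batch and genotype, 24 libraries). P-values were adjusted by Benjamini-Hochberg over all genes tested. A call is an adjusted p under 0.01 and a DEG also has an absolute log2 fold change over 1. SE is the absolute log2 fold change over the square root of F. Normalized CPM are counts scaled by TMM library size, and 3 counts correspond to 0.0837 to 0.22 of them. The common biological coefficient of variation was 0.0567. The steps were tested on simulated data.

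Named genes are the 10 members, the targeted genes, for each member the 3 most alike genes (mean of at least 10 counts), and from each of 4 lists and line at most 3 DEGs with the largest change; promoters, neighbours and pairs were described outside this rule, and some genes the rule names are not reported here. Members, lists and tests were chosen with earlier results of these data known. Alternatives were the newer quasi-likelihood fit, DESeq2 1.42.0, other scaling, no filter, no batch term, a replicate block, each line with its own WT, batch C or D left out, each library left out and, added after seeing the data, protein-coding genes only. Same-numbered libraries of a batch did not deviate together (r from -0.0672 to 0.0453 over 13 pairs), so the numbers were not taken as pairs. The 13 values are not separate: in a line with 2 libraries both pairs give the same r by construction. Rsf1Δ and WstfΔ also share their WT libraries. No library pair agreed within sampling noise (chi-square per degree of freedom 1.38 to 20.4).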

Additional observations from a re-analysis of the deposited data

Results flagged for a closer look

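For 9 of the 10 genes the change against WT differed among the 6 lines (edgeR's quasi-likelihood F test of equal genotype terms, Benjamini-Hochberg adjusted p over all genes). The adjusted p was 1.87e-10 for Cdh1, 1.4e-13 for Epcam, 3.55e-07 for Ocln, 4.82e-08 for Cldn6 and 1.41e-06 for Cldn7. It was 9.1e-09 for Cdh2, 1.11e-14 for Vim, 0.00102 for Fn1 and 1.42e-08 for Snai1. The same test passed for 65.3% of all genes. Between WstfΔ and Rsf1Δ, which share their WT libraries, 3 genes differed directly (edgeR), with log2 differences (WstfΔ minus Rsf1Δ) of -0.375 for Cdh1, -1.69 for Cdh2 and 0.201 for Vim. The Vim call was lost with RLE scaling and with the replicate block (edgeR adjusted p = 0.0123 and 0.0156). Every group within a batch has 2 or 3 libraries, so none was searched for a library far from the others.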

How the results depend on the processing

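Of 198 recomputed counts and summaries, 175 were within 1.5 times the reported value. Without a batch term the members past the threshold numbered 0 in Rsf1Δ and Acf1Δ and 1 each in Tip5Δ, WstfΔ and the libraries labelled Cecr2Δ, the DEGs 0, 1, 0 and 1 in Rsf1Δ, Cecr2Δ, Acf1Δ and WstfΔ, and 0 members differed between WstfΔ and Rsf1Δ (edgeR; at an unadjusted p under 0.05, 1 in Rsf1Δ, 6 in Acf1Δ and 2 between WstfΔ and Rsf1Δ). WT batches differ for 9 of the 10 genes, so this model compares each line with WT cells of other batches. It turned the direction of Cdh1 (0.28) and Ocln (0.19) in Rsf1Δ, of Cldn6 (0.019), Cdh2 (-0.60), Fn1 (0.45) and Zeb2 (0.18) in Tip5Δ, of Ocln (-0.15) and Cldn7 (-1.09) in Cecr2Δ, of Snai1 (0.12) in Acf1Δ, and of Vim (-0.17), Fn1 (-0.61) and Snai1 (-0.66) in BptfΔ. Cdh1, Epcam, Ocln, Cldn6, Cdh2 and Zeb2 in BptfΔ and Cdh2 in WstfΔ stayed lower and past the threshold. With library size only, Cdh2 in Tip5Δ was at -0.024. With the replicate block, 3 members passed in Cecr2Δ, 4 in Tip5Δ, 5 in Acf1Δ and 8 in WstfΔ, the numbers of DEGs were as reported, and 2 genes differed between WstfΔ and Rsf1Δ, as with RLE scaling. With only its own WT, Acf1Δ had 4. Without WT replicate 1 of batch C, BptfΔ had 5 DEGs among the members. Leaving out single libraries, 2 to 3 members passed in Tip5Δ and 3 to 5 in Cecr2Δ, and values that changed sign ranged from -0.26 to 0.11 (Ocln in Rsf1Δ), -0.057 to 0.10 (Cdh2 in Tip5Δ), -0.055 to 0.15 (Fn1 in BptfΔ) and -0.052 to 0.29 (Cldn7 in Cecr2Δ). Without gene width the mean log2 ratio of Cdh1 to Cdh2 over WT was 6.64 in place of 7.46, and 6 of 30 most alike genes were shared without subtraction of the batch mean. Of list counts, 9 of 336 moved by over 1.5 times with a batch term and 32 of 48 without. Causes were not tested. Depth limits Cdh2, Zeb2 and Snai1, at 11 to 226 counts a library.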
